A study of Mus musculus with 20 samples.

Results

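Among the hearts of 10 mice that had access to a running wheel for 6 weeks, 4 libraries held Myl7, the atrial regulatory myosin light chain, above 1000 FPKM, and the other 6 held almost none. FPKM is a read count scaled to transcript length and library depth, so levels given in it can be set side by side between genes. The 4 libraries, called high-Myl7 here, were trained wild-type replicates 4 and 5 and trained replicates 2 and 5 of the mice labelled as knockout. The 6 low-Myl7 libraries were trained wild-type replicates 1, 2 and 3 and trained labelled knockout replicates 1, 3 and 4. The groups were therefore chosen by a measured level, 4 and 6 of the 20 libraries of the series, and the difference between them is described without a test.

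The study compared wild-type mice with mice whose cardiomyocytes are labelled as lacking PGC-1α, the coactivator encoded by Ppargc1a, each kept sedentary or given wheel running. All 20 mice were males aged 14 to 16 weeks, 5 in each of the 4 groups, and strain, Cre driver and deleted exons are not given in the sources used here. RNA came from pieces of 15 to 20 mg of heart, without a chamber being named, and poly-A RNA was sequenced as directional libraries under 1 batch label. Read totals recovered from the values ran from 14.2 to 30.4 M per library, over the trained libraries as over all 20, and transcripts of the mitochondrial genome took 15.6 to 16.6% of the reads in the high-Myl7 and 11.4 to 20.3% in the low-Myl7 libraries. Ppargc1a over its whole length was at 11.2 and 18 FPKM in the high-Myl7 wild-type and at 26.9 and 23.0 FPKM in the high-Myl7 labelled knockout libraries, so the targeted gene was not lower under the knockout label, and the mice are called labelled knockout.

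Atrial and ventricular cardiomyocytes share most of their sarcomere but use different myosin light chains: Myl7 and Myl4 in the atria, Myl2 and Myl3 in the ventricles. Atrial cells also secrete natriuretic peptide from dense granules, carry the acetylcholine-gated potassium channel that slows the heart under vagal input, and keep sarcolipin in place of much of the phospholamban that restrains the calcium pump. The atrial base of the heart lies against tissue that a piece of the ventricular wall mostly lacks: the sinoatrial and atrioventricular nodes, the intrinsic ganglia, the roots of the great vessels, the valves, and fat that in mice can include brown adipocytes.

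The start-proximal sequences of 6 atrial genes are shown first, 5 that separated the high-Myl7 from the low-Myl7 libraries and Nppa, which did not. Each is the 250 bases before the gene's start in RefSeq on GRCm38.p6, written 5′ to 3′ along the gene's strand, with capitals marking a GATA word (AGATAA or TGATAA) or a T-box word (AGGTGT) on either strand.
Myl7 (chr11:5898783-5899032, minus strand): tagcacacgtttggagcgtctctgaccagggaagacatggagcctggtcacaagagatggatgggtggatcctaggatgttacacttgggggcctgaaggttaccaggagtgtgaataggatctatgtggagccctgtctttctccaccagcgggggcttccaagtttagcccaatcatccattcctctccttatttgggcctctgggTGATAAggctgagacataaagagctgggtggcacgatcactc
Bmp10 (chr6:87428744-87428993, plus strand): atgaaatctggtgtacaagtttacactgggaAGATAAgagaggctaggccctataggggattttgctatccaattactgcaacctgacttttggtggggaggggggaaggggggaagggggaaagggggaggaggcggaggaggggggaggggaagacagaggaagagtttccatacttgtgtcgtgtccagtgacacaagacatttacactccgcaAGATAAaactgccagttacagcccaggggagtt
Myl4 (chr11:104550413-104550662, plus strand): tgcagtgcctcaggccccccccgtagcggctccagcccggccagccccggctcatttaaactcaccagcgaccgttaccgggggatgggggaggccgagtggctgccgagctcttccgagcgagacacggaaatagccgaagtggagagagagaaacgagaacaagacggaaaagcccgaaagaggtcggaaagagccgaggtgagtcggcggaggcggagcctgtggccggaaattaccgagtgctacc
Mybphl (chr3:108364661-108364910, plus strand): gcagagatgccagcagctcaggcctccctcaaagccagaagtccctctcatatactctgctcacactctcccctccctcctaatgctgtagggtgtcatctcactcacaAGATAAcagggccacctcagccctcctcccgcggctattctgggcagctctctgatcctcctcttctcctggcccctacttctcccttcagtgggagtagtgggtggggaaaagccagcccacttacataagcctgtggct
Hamp (chr7:30944030-30944279, minus strand): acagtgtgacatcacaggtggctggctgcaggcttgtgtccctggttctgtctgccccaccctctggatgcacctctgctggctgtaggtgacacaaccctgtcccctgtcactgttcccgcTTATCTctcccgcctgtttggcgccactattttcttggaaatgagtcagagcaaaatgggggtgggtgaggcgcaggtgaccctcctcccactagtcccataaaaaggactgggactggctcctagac
Nppa (chr4:148000472-148000721, plus strand): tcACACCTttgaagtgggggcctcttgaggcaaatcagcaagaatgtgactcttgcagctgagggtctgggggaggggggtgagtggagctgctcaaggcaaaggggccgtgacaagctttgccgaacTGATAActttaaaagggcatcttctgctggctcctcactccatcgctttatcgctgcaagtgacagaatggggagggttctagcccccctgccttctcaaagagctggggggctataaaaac

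The GATA word began 42 bases before the start in Myl7, 219 and 33 bases before it in Bmp10, 141 in Mybphl, 128 in Hamp and 122 in Nppa, and Nppa held a T-box word 248 bases before its start. Myl4 held neither word in this window, and neither did the marker genes Sbk2 and Sbk3, whose windows are not printed. No window was found for Sln. A GATA word was present in 6 of the 16 promoters found for the 20 genes of an atrial list (37.5%) and in 4 of the 11 found for a ventricular list of 12 (36.4%). Without Myl2, whose RefSeq start lies upstream of the annotated start used here, the ventricular share was 3 of 10 (30%). The word was present in 16.9% of 142 promoters of the genes set apart upward as defined below, in 9.07% of the 9795 promoters of all genes tested and in 17% of the 27025 promoters of the table. The T-box word was in 2 of the 16 atrial and 0 of the 11 ventricular promoters, against 9.32% of the promoters of genes tested. Neither word contains the other, though they can share an end base, and a match only describes the sequence.

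Myl7 (ENSMUSG00000020469, a protein-coding gene at 5896637 to 5898782 on the minus strand of chromosome 11, build GRCm38) was at 1975 and 3484 FPKM in the high-Myl7 wild-type libraries and at 2055 and 1355 FPKM in the high-Myl7 labelled knockout libraries. In the low-Myl7 libraries it was at 0.0846, 2.88 and 0.508 FPKM in wild-type and at 1.76, 1.27 and 1.66 FPKM in labelled knockout mice. No trained library lay between 2.88 FPKM, the highest value under the threshold, and 1355 FPKM, the lowest above it. The 10 sedentary libraries ran from 0 to 97.1 FPKM with a median of 1.64 FPKM, so the choice of 1000 FPKM as the limit did not decide which libraries were taken.

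The difference of each gene was taken as the least-squares difference of log2(FPKM + 0.5), high-Myl7 minus low-Myl7, with genotype as covariate, over the 13826 genes whose mean over the trained libraries reached 0.5 FPKM. It is given with its standard error (SE) and understates the change of genes near 0. A gene was called set apart where the 4 and the 6 libraries did not overlap and the difference was at least 2-fold. Upward, 201 genes (1.45%) were set apart, and downward 7 (0.0506%), around a median difference of -0.01 over all genes. Counts set apart in a marker list are to be read against these shares. Genes near 0 in the low-Myl7 class passed the filter through the high-Myl7 libraries alone, so such counts partly describe the choice of libraries. Of the 201, 32 were at least 8-fold and 14 at least 32-fold apart, and 179 lay above every sedentary library as well. Wild-type replicate 5 held the highest value for 98 of the 201, labelled knockout replicate 2 for 48, wild-type replicate 4 for 30 and labelled knockout replicate 5 for 25.

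Atrial genes came first. Of the 20 genes of the atrial list, 19 passed the filter on low values and 14 were set apart upward, with a median difference of 3.62 over the 19, and 16 of the 20 did not overlap; over all genes tested 3.73% were higher and 1.93% lower without overlap. The rule that chose the libraries used an atrial gene of the same tissue, so these counts describe the choice and support nothing further. Sln, which encodes sarcolipin, a small inhibitor of the sarcoplasmic reticulum calcium pump (ENSMUSG00000042045, plus strand of chromosome 9, 53850164 to 53854560), was at 342, 590, 286 and 205 FPKM in high-Myl7 wild-type replicates 4 and 5 and labelled knockout replicates 2 and 5. It was listed at 0 in the 3 low-Myl7 wild-type libraries and at 0.0477, 0.0334 and 0.0620 FPKM in the 3 low-Myl7 labelled knockout libraries. The gap had no library in it, and the difference was 9.30 ± 0.21 (SE).

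Myl4, the atrial essential light chain (ENSMUSG00000061086, plus strand of chromosome 11, 104550663 to 104595753), was at 369, 620, 344 and 239 FPKM in the same order of the high-Myl7 libraries. Its low-Myl7 values were 0.409, 0.520 and 0.427 FPKM in wild-type and 1.96, 1.81 and 2.17 FPKM in labelled knockout mice, for a difference of 7.92 ± 0.36. Within the low-Myl7 class the labelled knockout libraries were thus all above the wild-type ones, at levels far under the high-Myl7 class. Bmp10, a growth factor of the right atrium (plus strand of chromosome 6, 87428994 to 87437677), was at 281 and 247 FPKM in high-Myl7 wild-type and at 102 and 167 FPKM in high-Myl7 labelled knockout libraries. No low-Myl7 library exceeded 0.778 FPKM, and the difference was 8.08 ± 0.34. Mybphl, a relative of myosin-binding protein C found in atria and the conduction system, was at 178, 281, 108 and 80.0 FPKM against 0.0470 to 4.14 FPKM (7.06 ± 0.58).

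The kinase genes Sbk3 and Sbk2, neighbours on chromosome 7, were present in every trained library. Sbk3 was at 53.9, 117, 43.0 and 33.5 FPKM against 1.24 to 2.99 FPKM (4.45 ± 0.26), and Sbk2 at 25.3, 48.5, 17.8 and 14.6 FPKM against 0.558 to 2.88 FPKM (3.62 ± 0.20). In sedentary hearts Sbk2 was at 2.17 to 4.66 FPKM in every library, so its transcript was not confined to the high-Myl7 libraries. Dkk3, a secreted protein of the Dickkopf family, was at 137, 183, 110 and 110 FPKM against 0.476 to 2.76 FPKM in low-Myl7 wild-type and 8.68 to 12.8 FPKM in low-Myl7 labelled knockout libraries (5.01 ± 0.58). Stard10, a lipid transfer protein, was at 133, 185, 75.0 and 57.9 FPKM against 5.59 to 19.1 FPKM (3.29 ± 0.18). Hamp, the precursor of the iron hormone hepcidin, was at 47.6, 57.0, 12.5 and 13.6 FPKM against at most 0.199 FPKM (5.59 ± 0.37).

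**Figure D1:**
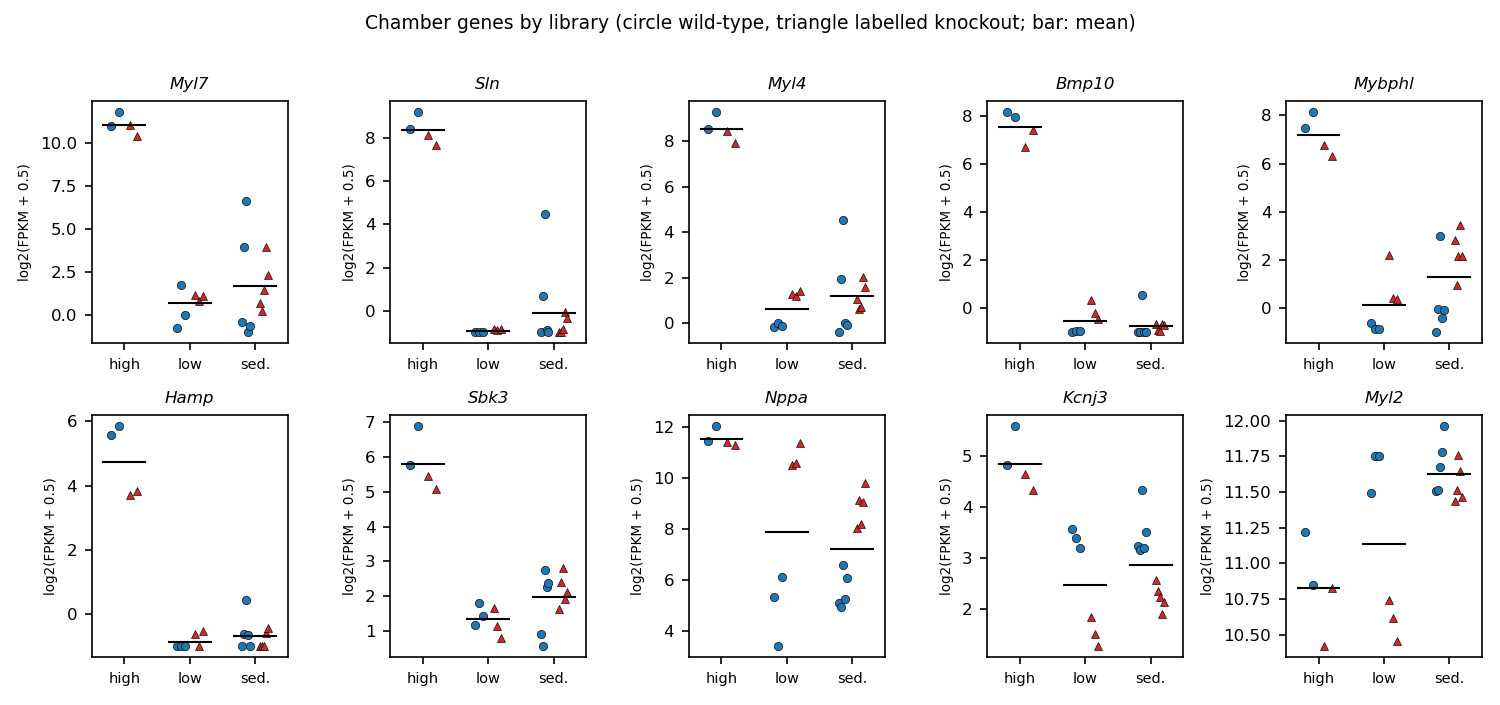
Level of 10 chamber genes in each library as log2(FPKM + 0.5), for the 4 high-Myl7 trained, 6 low-Myl7 trained and 10 sedentary (sed.) libraries; circles are wild-type, triangles labelled knockout and bars the mean of the class. Sln, Myl4, Bmp10, Mybphl, Hamp and Sbk3 separate the classes in both genotypes, while the 3 low-Myl7 labelled knockout libraries reach 1472 to 2702 FPKM of Nppa and Myl2 stays between 1367 and 3455 FPKM in all trained libraries.

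Transcription factors of atrial identity differed less. Tbx5, a T-box factor that patterns the atria and the conduction system, was at 22.2, 34.8, 19.9 and 19.6 FPKM against 4.87 to 6.27 FPKM (1.98 ± 0.14). The orphan receptors Nr2f1 and Nr2f2, which specify atrial cells, did not overlap but were under 2-fold apart (0.80 ± 0.09 and 0.73 ± 0.11).

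Nppa, which encodes atrial natriuretic peptide and is re-expressed in stressed ventricles (ENSMUSG00000041616, plus strand of chromosome 4, 148000722 to 148002079), was the atrial gene that did not separate the classes. It was at 2806, 4205, 2734 and 2528 FPKM in the high-Myl7 libraries, at 39.9, 10.1 and 69.7 FPKM in low-Myl7 wild-type and at 1472, 1562 and 2702 FPKM in low-Myl7 labelled knockout libraries. The class difference was 6.79 in wild-type and 0.52 in labelled knockout mice, on the log2 scale. The interaction, labelled knockout minus wild-type difference, was -6.27 ± 0.92 and did not pass over all genes (limma adjusted p = 0.0993). In labelled knockout hearts Nppa alone therefore did not tell a piece rich in Myl7 from one without it.

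Around the peptide, Pam, the amidating enzyme that is the main membrane protein of atrial granules, was at 235, 363, 290 and 223 FPKM. In low-Myl7 libraries it was at 32.6 to 64.8 FPKM in wild-type and 125 to 155 FPKM in labelled knockout mice, and the difference was 1.75 ± 0.33. Npr3, the clearance receptor for natriuretic peptides, was at 11.6, 13.7, 5.15 and 6.37 FPKM against 1.47 to 4.70 FPKM (1.76 ± 0.28). Of the 8 genes of the natriuretic list 7 were tested, Pam and Npr3 were the 2 set apart, and the median difference was 0.38. Over all genes tested 1.45% were set apart upward. Nppb, the ventricular peptide, was at 243, 390, 578 and 479 FPKM against 44.1 to 268 FPKM in low-Myl7 wild-type and 734 to 1273 FPKM in low-Myl7 labelled knockout libraries. In wild-type mice 1 of the 2 high-Myl7 libraries thus lay above all low-Myl7 ones, and in labelled knockout mice both lay below them.

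Ventricular transcripts were present in all 10 trained libraries. Of the 12 genes of the ventricular list, all tested, none was set apart and the median difference was -0.36. Myl2 (ENSMUSG00000013936, plus strand of chromosome 5, 122100951 to 122113472) was at 2390 and 1846 FPKM in high-Myl7 against 2876, 3455 and 3449 FPKM in low-Myl7 wild-type libraries, which did not overlap. In labelled knockout mice it was at 1367 and 1816 FPKM against 1716, 1566 and 1406 FPKM, which did. The pan-cardiomyocyte list, which holds sarcomere genes of both chambers, had a median difference of -0.11 with none of 10 set apart. The high-Myl7 libraries thus held atrial beside ventricular transcripts, the low-Myl7 ones held ventricular light chains with at most 2.88 FPKM of Myl7, and the labels do not say which chamber was taken. In such bulk samples fewer cells of a type and less RNA per cell cannot be told apart.

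Channels of vagal control in the atrium were higher with Myl7 in part. Kcnj3 and Kcnj5 encode the 2 subunits of the acetylcholine-gated potassium channel. Kcnj3 was at 27.9, 47.6, 24.7 and 19.7 FPKM against 8.74 to 11.5 FPKM in low-Myl7 wild-type and 1.90 to 3.09 FPKM in low-Myl7 labelled knockout libraries (2.38 ± 0.24). Kcnj5 was at 26.2, 35.4, 30.4 and 24.5 FPKM against 11.4 to 18.6 FPKM (1.04 ± 0.14). Gnao1, the alpha subunit of the inhibitory G protein Go, was at 7.79 to 9.99 FPKM against 2.19 to 4.68 FPKM (1.38 ± 0.15), and Rgs6, which shortens the vagal response, did not overlap at 0.82 ± 0.10. Chrm2, the muscarinic receptor itself, overlapped, at 11.6 to 20.8 FPKM against 7 to 13.3 FPKM.

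Of the 18 genes of that channel list 17 were tested, 4 were set apart upward and the median difference was 0.23. With no filter 6 of the 18 lay higher and 2 lower without overlap, against 3.24% and 1.23% of 25767 genes. Kcna5, the channel of the ultrarapid repolarising current, went the other way with overlap (9.26 to 13.5 against 10.8 to 24.2 FPKM). Rgs4, a regulator of G protein signalling, was lower without overlap but under 2-fold, at 4.06 to 5.12 against 5.55 to 7.82 FPKM (-0.54 ± 0.07).

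Transcripts of the conduction system and of pacemaker cells were a mixed group. Of 22 listed genes 18 were tested and 5 were set apart upward, with a median difference of 0.46; with no filter 10 of the 22 lay higher and 1 lower without overlap, against 3.24% and 1.23% of 25767 genes. Cacna1h, a T-type calcium channel, was at 13.2, 16.1, 9.57 and 10.3 FPKM against 1.45 to 3.45 FPKM (2.05 ± 0.23). Gja5, connexin 40 of atria and the fast conduction fibres, was at 6.58, 9.10, 5.84 and 4.14 FPKM against 1.39 to 1.96 FPKM (1.61 ± 0.16). Vsnl1, a calcium sensor enriched in the sinoatrial node, was at 1.34, 1.76, 2.81 and 1.34 FPKM against at most 0.109 FPKM (2.11 ± 0.17). Its highest value was in labelled knockout replicate 2, not in wild-type replicate 5, which was highest for 13 of the 14 atrial genes set apart.

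Shox2, a transcription factor that keeps sinoatrial cells from becoming working atrial muscle, was at 1.63, 1.2, 1.77 and 0.992 FPKM against 0.171 to 0.572 FPKM (1.19 ± 0.16). Isl1, a factor of the same node, stayed below the filter and did not overlap, at 0.0519 to 0.306 FPKM against at most 0.00795 FPKM. Cpne5 and the L-type channel gene Cacna1d were the other 2 genes below the filter that did not overlap, Cpne5 at 0.864 to 1.38 against 0.0147 to 0.0532 FPKM. Hcn4, the pacemaker channel, and Tbx3, the repressor that defines the nodes, both overlapped. Hcn4 was at 3.40, 2.41, 2.09 and 1.48 FPKM against 1.19 to 2.42 FPKM in low-Myl7 wild-type and 0.458 to 0.695 FPKM in low-Myl7 labelled knockout libraries. Tbx3 was at 2.35 to 3.19 against 2.22 to 3.59 FPKM. The genes of the list summed to 110 to 131 FPKM in the high-Myl7 and to 105 to 144 FPKM in the low-Myl7 libraries, so the defining nodal genes were present at low levels while the list total was not higher.

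Fat transcripts accompanied the atrial ones in all 4 libraries. Of the 21 genes of the adipocyte list 19 were tested, 10 were set apart upward and the median difference was 2.30. With no filter 13 of 21 lay higher without overlap, against 3.24% of 25767 genes. Adipoq, the adipocyte hormone adiponectin (ENSMUSG00000022878, plus strand of chromosome 16, 23146536 to 23158028), was at 27.2 and 9.65 FPKM in high-Myl7 wild-type and at 36.7 and 3.94 FPKM in high-Myl7 labelled knockout libraries, against at most 0.130 FPKM (4.77 ± 0.50). Cfd, the adipocyte protease adipsin, was at 283, 54.0, 149 and 21.8 FPKM against 0.102 to 0.399 FPKM (6.80 ± 0.56). Car3, carbonic anhydrase 3, was at 97.1, 39.7, 141 and 15.0 FPKM against at most 0.242 FPKM (6.37 ± 0.51). Labelled knockout replicate 5 was the lowest of the 4 for all 10 of these genes, and replicate 2 the highest for 8.

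Genes of lipid storage and synthesis in the list behaved likewise. Cidec and Plin1, which coat the large lipid droplet of fat cells, differed by 5.08 ± 0.47 and 4.03 ± 0.51, and Pck1, which makes glycerol phosphate for triglyceride in fat, by 5.24 ± 0.54. Scd1, a fatty acid desaturase, was at 77.6, 26.7, 214 and 14.4 FPKM against 2.82 to 5.69 FPKM. Fasn, fatty acid synthase, was at 46.2, 20.7, 68.8 and 12.7 FPKM against 2.78 to 7.58 FPKM. Members that cardiomyocytes and endothelium also express did not follow: Pnpla2 was at 85.8 to 161 against 68.0 to 139 FPKM, and Fabp4 at 79.6 to 134 against 69.4 to 146 FPKM, with overlap. Lep, the hormone leptin, was below the filter at 0.122 to 2.5 against at most 0.0366 FPKM and did not overlap.

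Of the brown adipocyte list some members were higher with Myl7 and others were not. Ucp1, the uncoupling protein of brown adipocytes (ENSMUSG00000031710, plus strand of chromosome 8, 83290352 to 83298452), was at 57.8, 30.1, 117 and 4.42 FPKM in the high-Myl7 libraries. It was listed at 0 in 5 of the 6 low-Myl7 libraries and at 0.0367 FPKM in the other one (5.98 ± 0.68). Elovl3, a fatty acid elongase of brown fat, was at 3.18, 1.07, 3.06 and 0.481 FPKM against at most 0.120 FPKM, and the channel Otop1 at 1.43, 0.887, 4.70 and 0.224 FPKM against at most 0.0206 FPKM. These were the 3 genes set apart of 8 tested and 11 listed, with a median difference of 1.2. All 3 passed the filter on low values through their high-Myl7 libraries alone, so this count and median partly describe the choice of libraries. With no filter 4 of the 10 genes in the table lay higher without overlap, against 3.24% of 25767 genes. Zic1, a marker of classical brown fat of the back, was at 0 to 0.0573 FPKM in every trained library, and Cidea overlapped, at 10.7 to 67.7 against 7.51 to 21.3 FPKM. Dio2, Prdm16 and Ebf2, the other defining genes tested, also overlapped, with differences of -0.04, -0.25 and -0.06.

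**Figure D2:**
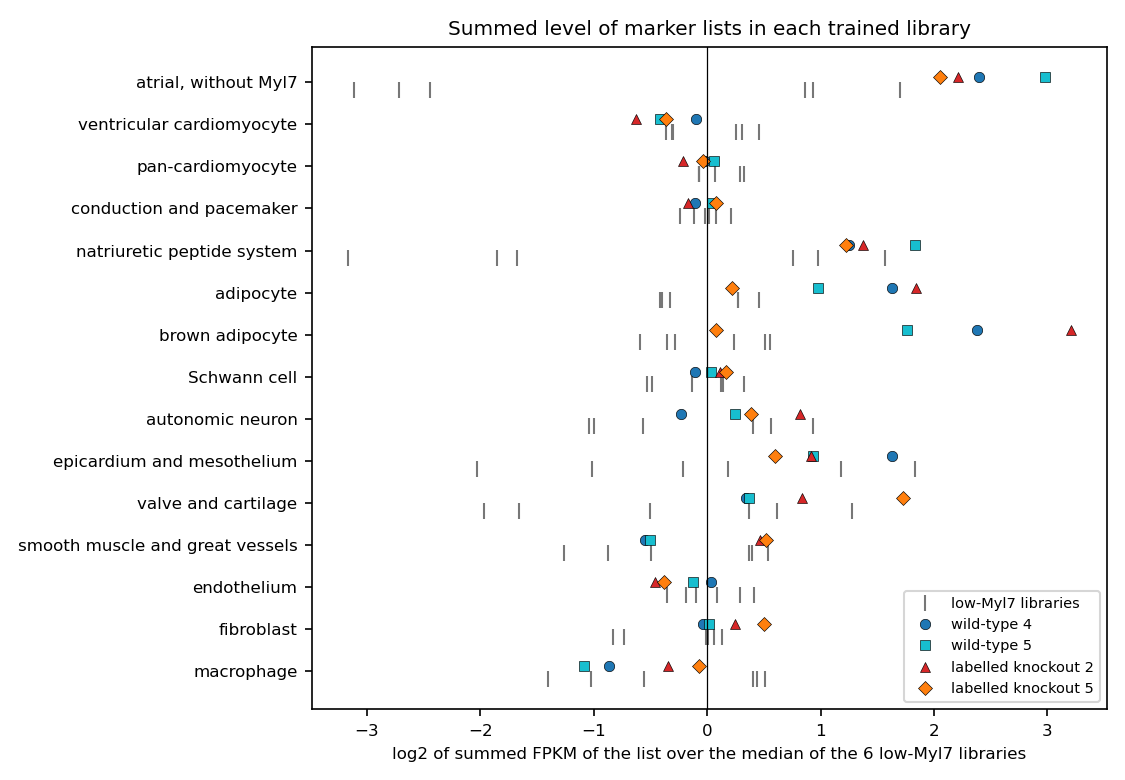
Summed FPKM of each marker list in each trained library over the median of the 6 low-Myl7 libraries, as log2; coloured symbols are the 4 high-Myl7 libraries and grey ticks the 6 low-Myl7 libraries. The atrial list is summed without Myl7, which chose the libraries. Its sums lay above all ticks, adipocyte and brown adipocyte sums lay above them in 3 of the 4 libraries, and the sums of the ventricular, conduction, Schwann, endothelial and macrophage lists overlapped the ticks. In the high-Myl7 libraries Nppa made up most of the atrial sum.

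Nerve transcripts were low but present. Of the 28 genes of the autonomic neuron list 22 were in the table, 8 were tested and 2 were set apart, with a median difference of 0.61. With no filter 8 of the 22 lay higher without overlap, 5 of them below the filter, against 3.24% of 25767 genes. Prph, peripherin, an intermediate filament of peripheral neurons, was at 0.909, 2.09, 2.68 and 0.514 FPKM against 0.142 to 0.346 FPKM (1.34 ± 0.29). Npy, neuropeptide Y, was at 0.850, 1.88, 1.73 and 0.998 FPKM against 0 to 0.250 FPKM (1.64 ± 0.21). Slc5a7, the choline transporter of cholinergic neurons, was at 0.0273 to 0.338 FPKM and listed at 0 in all 6 low-Myl7 libraries. Th, tyrosine hydroxylase of sympathetic neurons, overlapped through labelled knockout replicate 5 (0.0217 FPKM) and was at 0.430 to 0.617 FPKM in the other 3. Levels this close to 0 rest on few reads.

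Of the Schwann cell list, S100b, a calcium-binding protein, was at 1.40, 1.70, 3.83 and 1.49 FPKM against 0.303 to 0.860 FPKM (1.14 ± 0.21). Which cells held it was not tested. It was the 1 of 13 tested Schwann cell genes set apart, where 12 of the 13 differences were positive with a median of 0.39. With no filter 5 of the 22 genes in the table lay higher without overlap, 1 of them below the filter, against 3.24% of 25767 genes. Among these was the neurotrophin receptor gene Ngfr, at 0.626 to 1.33 against 0.226 to 0.460 FPKM. The summed list was at 55.5 to 67.2 FPKM against 41.4 to 75.0 FPKM, with overlap.

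Genes of valves, great vessels and the heart's surface were checked as further neighbours of the atria. Cytl1, a secreted protein of cartilage, was at 35.6, 36.1, 41.7 and 65.6 FPKM against 3.63 to 20.0 FPKM (2.72 ± 0.42). Chad, chondroadherin, was at 1.46, 0.632, 4.80 and 18.8 FPKM against 0.112 to 0.438 FPKM (2.35 ± 0.53), and Fmod, fibromodulin, differed by 2.27 ± 0.42. These 3 of 11 tested valve and cartilage genes were set apart, and all 3 were highest in labelled knockout replicate 5, the library lowest in fat. Over all genes tested 1.45% were set apart upward. With no filter 4 of the 15 listed lay higher without overlap, against 3.24% of 25767 genes. Chad, with a low-Myl7 mean of 0.270 FPKM, passed the filter through its high-Myl7 libraries alone. The median difference of the list was 1.13. Comp, another cartilage matrix gene, was at 15.1 to 32.9 FPKM and overlapped, at 0.606 to 3.75 FPKM in low-Myl7 wild-type and 26.2 to 74.0 FPKM in low-Myl7 labelled knockout libraries. Scx, Prg4 and Sox9 overlapped with differences of -0.71, -0.41 and -0.19.

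In the smooth muscle list, Cnn1, calponin of contractile smooth muscle, was at 8.79 and 8.10 FPKM in high-Myl7 wild-type and 21.9 and 20.4 FPKM in high-Myl7 labelled knockout libraries, against 0.347 to 5.27 FPKM (2.5 ± 0.30). Itga8, Lmod1 and Myh11 were also set apart (2.16, 1.64 and 1.60), making 4 of 11, against 1.45% of all genes tested. All 4 were highest in labelled knockout replicate 2 and lowest in wild-type replicate 5. Of the 11, 5 lay higher without overlap, against 3.73% of all genes tested. Acta2, smooth muscle actin, overlapped, at 160 to 465 against 82.7 to 536 FPKM. For the epicardial surface, Upk3b, a mesothelial membrane protein, was at 18.9, 9.43, 10.2 and 7.66 FPKM in the high-Myl7 libraries. It was at 14.7 FPKM in low-Myl7 wild-type replicate 2 and 5.44 FPKM in low-Myl7 labelled knockout replicate 1, against 0.198 to 1.55 FPKM in the other 4. The difference of Upk3b was 2.22 ± 0.77. None of the 8 tested epicardial genes was set apart, while 6 of the 8 were positive and the median difference was 1.23. In labelled knockout mice alone Upk3b did not overlap, and in wild-type mice it overlapped through replicate 2.

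**Figure D3:**
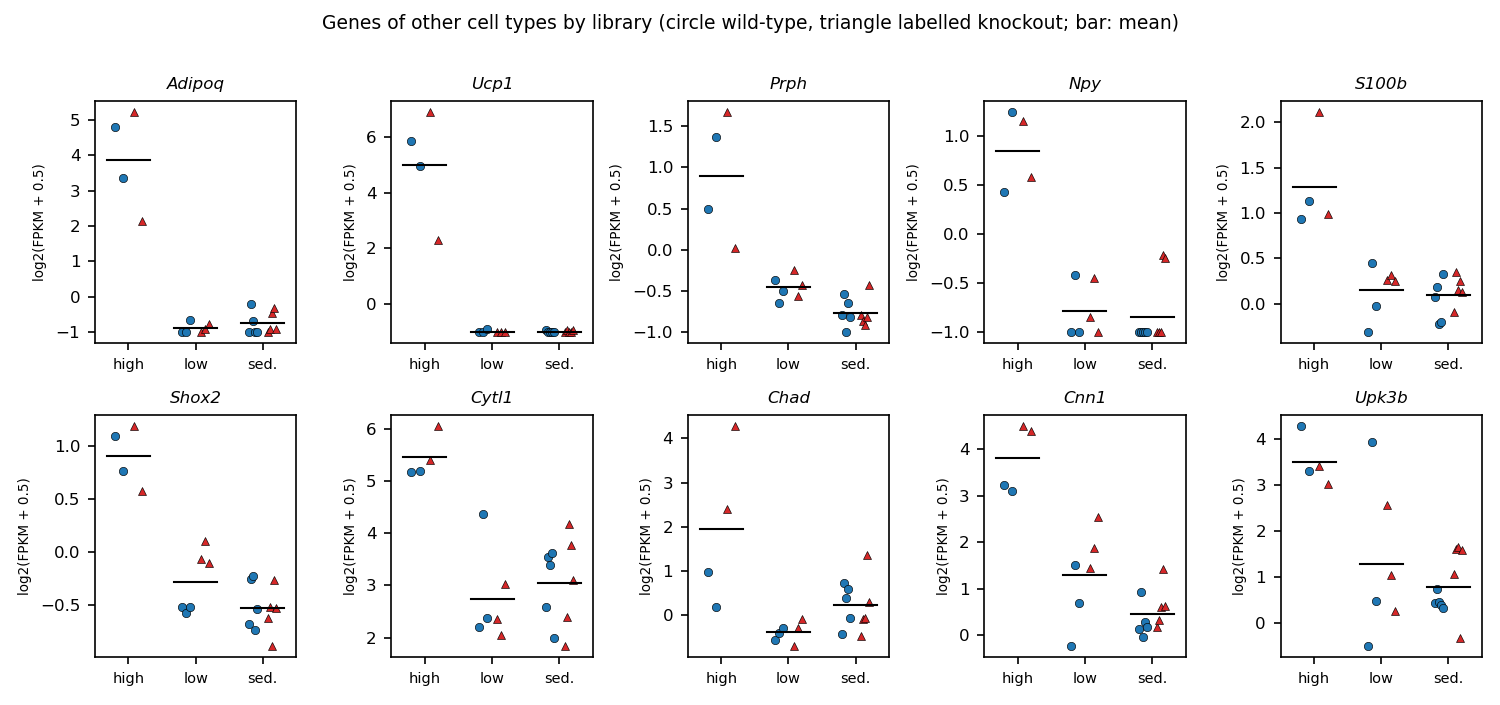
Level of 10 genes of fat, nerve, node, valve, smooth muscle and surface cells in each library as log2(FPKM + 0.5), for the 4 high-Myl7, 6 low-Myl7 and 10 sedentary (sed.) libraries; circles are wild-type, triangles labelled knockout and bars the class mean. All but Upk3b are list members set apart, so they separate the high-Myl7 from the low-Myl7 libraries by definition. Most tested members of several of these lists were not set apart. Those set apart were 2 of 8 for neurons, 1 of 13 for Schwann cells and 5 of 18 for conduction. For valve and smooth muscle they were 3 of 11 and 4 of 11. Upk3b is at 14.7 FPKM in 1 low-Myl7 wild-type library.

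Endothelial, fibroblast, macrophage, lymphatic, mast cell, erythroid, skeletal muscle, lymphocyte, fatty acid oxidation and immediate early lists had no member set apart in either direction. Their medians ran from -0.26 for the 10 macrophage genes to 0.95 for the 5 erythroid genes, whose sum was 1387 to 2456 FPKM in the high-Myl7 and 498 to 1728 FPKM in the low-Myl7 libraries. The log2 differences of the 16 immediate early genes were all positive, with a median of 0.35 and a smallest value of 0.02, and all 16 overlapped. The endocardial list had a median of 0.89 with 1 of 6 set apart, Npr3, against 1.45% of all genes tested. None of the 6 lung genes in the table passed the filter, and they summed to 0.845 to 1.91 against 0.517 to 1.79 FPKM. The part of blood or handling in the class difference was not tested.

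Within the 4 high-Myl7 libraries, given as a description, the gene groups kept different orders. Of the 14 atrial genes set apart, 13 were highest in wild-type replicate 5, 11 were lowest in labelled knockout replicate 5 and 3 lowest in labelled knockout replicate 2. Fat genes were highest in labelled knockout replicate 2 for 8 of 10, and the valve genes in labelled knockout replicate 5. The summed adipocyte list was 3.09 and 1.97 times the low-Myl7 median in wild-type replicates 4 and 5, and 3.58 and 1.17 times in labelled knockout replicates 2 and 5. The summed atrial list without Myl7 was 5.27, 7.87, 4.63 and 4.16 times its low-Myl7 median in the same order. Most of these sums was Nppa, with 2806, 4205, 2734 and 2528 FPKM of 4488, 6701, 3940 and 3543 FPKM. The low-Myl7 median lies between sums of 98.3 to 156 FPKM in wild-type and 1546 to 2771 FPKM in labelled knockout libraries. With 4 libraries chosen on Myl7 no relation between the groups was tested.

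Genes outside the lists were taken by size of difference. Cyp2e1, a cytochrome P450 of liver and fat, differed by 5.14 ± 0.41, and Cilp2, a cartilage matrix protein, by 5.00 ± 0.32. Tmem163, a zinc transporter, was at 12.9, 21.4, 12.1 and 10.2 FPKM against at most 0.0924 FPKM (4.67 ± 0.16), and Sfrp5, a secreted Wnt inhibitor of the developing venous pole and of fat, at 14.6, 15.4, 26.6 and 13.9 FPKM against 0.0662 to 1.45 FPKM (4.28 ± 0.30). Mlana, a melanocyte antigen, was at 29.1, 37.6, 35.7 and 26.0 FPKM. In the low-Myl7 class Mlana was at 0.0963 to 0.321 FPKM in wild-type and 3.32 to 5.55 FPKM in labelled knockout mice (4.17 ± 0.47).

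Few genes were lower in the high-Myl7 class. Col4a1, a collagen chain of basement membranes, was at 53.5, 40.4, 64.6 and 63.2 FPKM against 65.7 to 179 FPKM (-1.03 ± 0.18). Col5a3, a fibrillar collagen chain, was at 2.49 to 3.75 against 5.39 to 10.4 FPKM (-1.05 ± 0.17), and Spon2, a secreted matrix protein, at 0.360 to 0.901 against 1.08 to 6.14 FPKM (-1.24 ± 0.28). The mitochondrial transfer RNAs mt-Th and mt-Ts2 (-1.21 and -1.02), the microRNA gene Mir8091 (-1.64) and 1 gene with class means under 1 FPKM made up the 7. The 2 transfer RNAs and the microRNA gene are short RNAs that a poly-A library captures poorly. None of these 7 belongs to the ventricular list.

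The next comparison asked whether the class difference was the same in both genotypes, which the choice of libraries did not use, with 2 high-Myl7 and 3 low-Myl7 libraries in each. Over 13826 genes the differences in wild-type and in labelled knockout mice correlated with Pearson's r = 0.66 across genes, which are not independent replicates. The interaction passed limma's test for 4 genes (0.0289%), and 1149 (8.31%) had an unadjusted p under 0.05. Of these 4, Hamp alone is of the atrial list. Hamp passed the filter on low values through its high-Myl7 libraries alone, and in low-Myl7 wild-type libraries it is listed at 0. Its interaction (-2.24 ± 0.21, limma adjusted p = 0.0134) therefore sets 47.6 and 57.0 FPKM in high-Myl7 wild-type against 12.5 and 13.6 FPKM in high-Myl7 labelled knockout libraries, over a floor fixed by the 0.5 added before the logarithm.

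Fgl2, a prothrombinase of macrophages and endothelium, was at 20.1 and 23.8 FPKM in high-Myl7 against 8.76 to 11.2 FPKM in low-Myl7 wild-type libraries. In labelled knockout mice the order was turned, at 51.8 and 43.6 FPKM against 79.6 to 83.8 FPKM, and the interaction was -1.90 ± 0.18 (limma adjusted p = 0.0134). Mlana (-2.80 ± 0.33) and Sds, serine dehydratase (-1.82 ± 0.21), both with limma adjusted p = 0.0419, were the other 2. Sds was at 6.15 and 8.54 FPKM in high-Myl7 wild-type but at 1.37 and 1.33 FPKM in high-Myl7 labelled knockout libraries. With the replicate number as a block none of the 4 passed, Hamp and Sds were lost with 0.1 added before the logarithm (limma adjusted p = 0.181 and 0.0841) and Mlana with 1 added (limma adjusted p = 0.08). Left out singly, trained wild-type replicate 2 raised the count to 62, and wild-type replicates 1, 3 and 5 and labelled knockout replicate 4 each brought it to 0. A gene that misses this test has not been shown to differ alike, since each genotype has 2 high-Myl7 libraries.

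**Figure D4:**
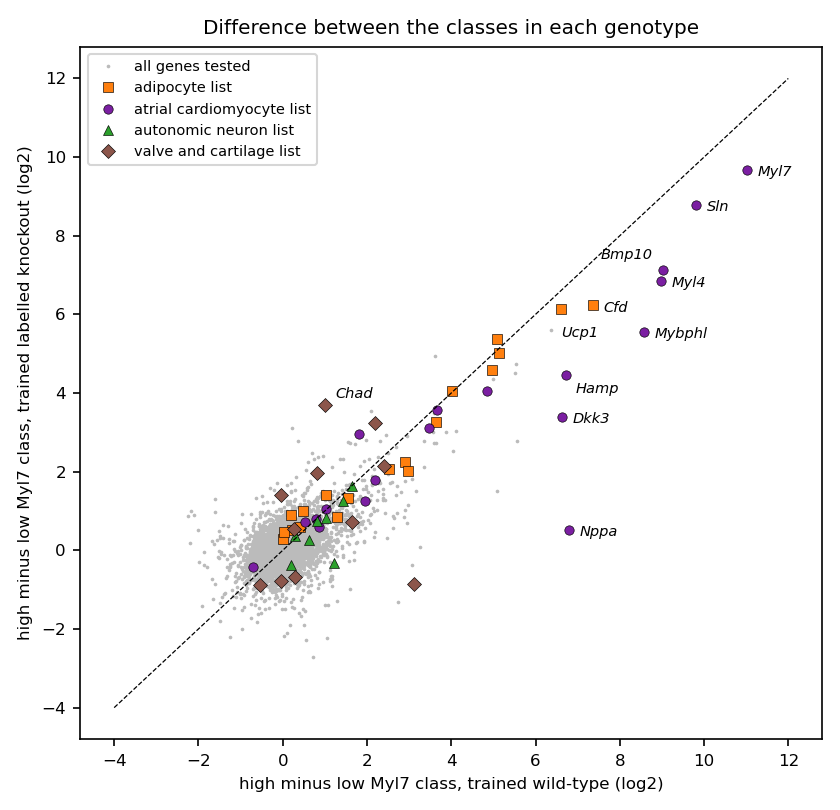
Class difference (high-Myl7 minus low-Myl7, log2) of each of 13826 genes in trained wild-type (horizontal) and trained labelled knockout mice (vertical); grey dots are all genes, coloured symbols 4 marker lists, and the dashed line marks equal differences. Myl7 (11.03 and 9.67), Bmp10 (9.02 and 7.13) and Myl4 (8.98 and 6.86) lie below the line, Nppa lies farther below it at 6.79 and 0.52, and Plin1 (4.02 and 4.04) and Cidec (5.14 and 5.02) lie close to it.

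Genotype was then compared among trained mice with the class as covariate, so that each genotype contributed 2 high-Myl7 and 3 low-Myl7 libraries. Over all genes 1981 (14.3%) were higher and 2315 (16.7%) lower in labelled knockout hearts by limma at an adjusted p of 0.05. Of the 19 tested atrial genes 6 were lower and 1 higher. Kcnj3 was lower by a log2 difference of -1.39 ± 0.24 (limma adjusted p = 0.00176), Sbk2 by -1.04 ± 0.19 (limma adjusted p = 0.00263) and Stard10 by -1.04 ± 0.18 (limma adjusted p = 0.00189). Kcna5, Chrm2 and Nr2f1 were lower as well, with differences of -0.56, -0.45 and -0.35, and Nppa was higher by 3.38 ± 1.06 (limma adjusted p = 0.0345). For Nppa this value averages unlike classes. Low-Myl7 libraries were at 1472 to 2702 FPKM in labelled knockout against 10.1 to 69.7 FPKM in wild-type mice. High-Myl7 labelled knockout libraries, at 2734 and 2528 FPKM, lay below the wild-type ones at 2806 and 4205 FPKM. Sln, Myl4 and Bmp10 did not pass, with differences of -0.28 ± 0.21, 0.53 ± 0.36 and 0.12 ± 0.33.

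The counts in other lists are to be read against the 14.3% of all genes called higher and the 16.7% called lower. In the conduction list 4 of 18 were higher, led by Kcne1, an accessory subunit of potassium channels (2.58 ± 0.15, limma adjusted p = 1.7e-05). In that list 3 were lower, among them Hcn4 (-0.89 ± 0.18, limma adjusted p = 0.0045). In the adipocyte list 3 of 19 were lower and none higher, and those 3 were Plin4, Pnpla2 and Dgat2, none of which was set apart between the classes. Of the valve and cartilage list 6 of 11 were higher and none lower, led by Prg4, lubricin (2.33 ± 0.18, limma adjusted p = 4.3e-05), and the macrophage list was higher in 10 of 10. Cnn1 was higher by 1.29 ± 0.29 (limma adjusted p = 0.00819) in addition to its class difference. The deposited scaling matters here: scaled as TPM the median gene moved from 0.00 to 0.24 between the genotypes and 5226 genes were higher and 827 lower, so a direction is relative to the deposited scaling.

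Gdf15, the stress cytokine named in the title of the series, was at 1.64 and 0.824 FPKM in high-Myl7 and at 1.15 to 3.17 FPKM in low-Myl7 wild-type libraries. In labelled knockout mice it was at 15.6 and 12.2 FPKM in high-Myl7 against 36.0, 44.9 and 48.2 FPKM in low-Myl7 libraries, which did not overlap. Its class difference was -0.51 in wild-type and -1.60 in labelled knockout mice, and the interaction of -1.09 ± 0.45 did not pass (limma adjusted p = 0.565). Myh7, the slow myosin of stressed ventricles, was likewise at 246 and 193 FPKM in high-Myl7 against 349 to 548 FPKM in low-Myl7 labelled knockout libraries, and at 64.7 to 80.6 FPKM in all 5 trained wild-type ones. The genotype difference of Myh7 was 2.21 ± 0.18 (limma adjusted p = 6.4e-05).

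Because all 4 high-Myl7 libraries were trained, they enter every comparison of trained with sedentary mice. In wild-type mice 403 of 13723 genes (2.94%) were higher and 347 (2.53%) lower after training with all libraries, and without the high-Myl7 libraries 34 of 13648 (0.249%) and 6 (0.044%), of which 32 and 5 were among the first. The trained groups then held 3 libraries each. In labelled knockout mice the counts were 1656 (12.1%) and 2236 (16.3%) with all libraries and 1742 (12.8%) and 2190 (16%) without. Scaled as TPM, with all libraries, they were 4085 higher and 631 lower in labelled knockout and 186 and 54 in wild-type mice. Wild-type counts were 804 and 860 with the replicate number as a block, and 1 and 3 without the libraries with Arntl, a circadian clock gene, above 2 FPKM, an alternative chosen after the data were seen. The wild-type counts also moved by more than 1.5 times when single libraries were left out, to 93 and 33 without trained wild-type replicate 4 and to 1051 and 1260 without trained wild-type replicate 1. Trained wild-type replicates 2 and 5 and sedentary wild-type replicates 1, 2 and 3, left out singly, lowered them to between 118 and 215 higher and between 70 and 164 lower calls.

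No atrial gene passed for training with all libraries in either genotype. The median training change of the 19 atrial genes was 1.49 in wild-type and 0.65 in labelled knockout mice, and of Myl7 3.04 ± 2.58 and 3.19 ± 2.58. Without the high-Myl7 libraries none of 17 passed in wild-type mice, while in labelled knockout mice Nppa (2.00 ± 0.55, limma adjusted p = 0.0126) and Gja5 were higher and Sbk2, Tbx5, Stard10 and Kcnj3 lower. Those trained groups were trimmed by Myl7 and the sedentary ones were not, so the 4 lower calls cannot be told apart from that choice. Of the 201 genes set apart, 166 were tested for training with all libraries. In wild-type mice 3 were called higher, and in labelled knockout mice 15 higher and 1 lower, where 2.94% and 12.1% of all genes were called higher. The 201 genes were chosen by their levels in the same trained libraries, which shifts and spreads their trained values. These counts therefore describe that choice and support nothing about training. Without the high-Myl7 libraries 114 of the 201 were tested, with 0 called in wild-type mice and 22 higher and 12 lower in labelled knockout mice. The limit of the trimmed groups holds here as well.

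The 10 sedentary libraries, which the choice did not use, allowed 12 relations to Myl7 to be tested across mice. Myl7 there was at 97.1 FPKM in wild-type replicate 3, at 14.7 FPKM in wild-type replicate 2, at 14.8 FPKM in labelled knockout replicate 4 and at 0 to 4.41 FPKM in the other 7. Myl4 followed it with Pearson's r = 0.96 and Spearman's rho = 0.94 (two-sided permutation test, adjusted p = 0.00024 and 0.00252 over the 12). Sln gave r = 0.87 and rho = 0.83 (permutation test, adjusted p = 0.00078 and 0.029). Without wild-type replicate 3 and labelled knockout replicate 4, the 2 libraries farthest from the Myl7 median, r was 0.92 for Myl4 and 0.88 for Sln. The levels behind this were small, up to 22.5 FPKM for Myl4 and 21.6 FPKM for Sln, both in wild-type replicate 3.

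Adipoq, at no more than 0.362 FPKM, passed by rank (rho = 0.79, permutation test, adjusted p = 0.0402) but not by r (0.67, permutation test, adjusted p = 0.128), and r was 0.81 without the 2 farthest libraries. None of the other genes passed by either measure. For Sbk3 and Sbk2 r was 0.04 and -0.05 (permutation test, adjusted p = 0.918 for both), for Nppa 0.14, for Hcn4 0.10, for Ucp1 -0.28, for Prph -0.12, for Upk3b -0.17 and for Myl2 -0.17. Small amounts of Myl7 in sedentary libraries thus came with Myl4 and Sln, and with 10 mice the other genes were not shown to follow or not to follow. Centred within genotype, no call by r changed.

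**Figure D5:**
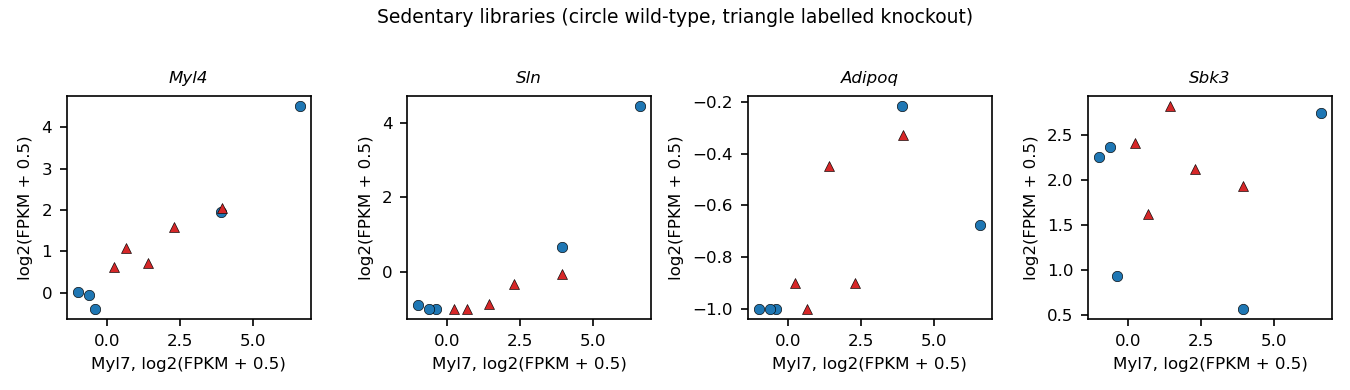
Myl4, Sln, Adipoq and Sbk3 against Myl7 in the 10 sedentary libraries, both axes as log2(FPKM + 0.5); circles are wild-type and triangles labelled knockout. Myl4 and Sln increase with Myl7 (r = 0.96 and 0.87), Adipoq stays at or below 0.362 FPKM, and Sbk3 shows no trend (r = 0.04); the rightmost point is wild-type replicate 3 at 97.1 FPKM of Myl7.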

How the data were processed

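Libraries were polyadenylated RNA of heart tissue from 20 mice, and the authors deposited 1 table of FPKM for 25851 genes by 20 libraries, already scaled between libraries. The build mm10 and the tools DESeq2 1.20.0, featureCounts 1.5.0-p3 and HISAT2 2.0.5 are listed, without a role, per the submitters' processing notes. FPKM times the GENCODE M21 exon length came to whole numbers (tolerance 0.01) for 24951 genes (96.5%), which served for depth alone. Replicates are separate mice.

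Values were used as log2(FPKM + 0.5) for genes whose mean reached 0.5 FPKM. Trained libraries were fitted with limma 3.58.1 (R 4.3.3, eBayes with trend, two-sided, Benjamini-Hochberg over all genes, threshold 0.05) on genotype and Myl7 class, with and without their interaction, and all 20 libraries on the 4 group means for training. The class contrast is given without a p. Correlations used 100000 resamples. The fits were tested on simulated data, and tables were made in pandas 2.3.3 under Python 3.11.15.

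The members, the 25 marker lists and the tests were chosen with earlier results of these data known. Named were the 5 marker genes, from each list up to 6 members set apart with a mean of at least 1 FPKM, from all genes the 20 upward and 15 downward differences that are largest, up to 5 genes per direction of each test, Ppargc1a and Gdf15, and list members at or near 0. Other list members, Myh7, Scd1, Fasn and Nppb among them, were named after their values were seen. Alternatives were other pseudocounts, filters, scalings and covariates, robust estimation of variances, a block for the replicate number, fits without the high-Myl7 libraries and without each library. Fits without the libraries with Arntl above 2 FPKM were added after the data were seen. No columns were left over. Results for a few list members are not reported here, though they count in the lists and in the 12 adjusted relations. Promoters came from RefSeq on GRCm38.p6, with 16 of 20 atrial genes found.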

Additional observations from a re-analysis of the deposited data

Results flagged for a closer look

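Among 30 genes followed in every library, 119 groups of 5 mice could be checked for a mouse far from the other 4, and 25 held one. The check used FPKM without a logarithm, on genes chosen with these data known, and many flags share a library. The count therefore has no chance rate to be set against. Sedentary wild-type replicate 3 stood above its group for 8 genes: Myl7 (97.1 FPKM), Myl4 (22.5 FPKM), Sln (21.6 FPKM), Mybphl (7.41 FPKM), Kcnj3 (19.7 FPKM), Bmp10 (0.975 FPKM), Hamp (0.854 FPKM) and Mlana (0.749 FPKM). It is the sedentary library with the most Myl7, and its Adipoq was 0.127 FPKM.

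Among trained labelled knockout libraries, replicate 2 stood apart for the fat genes Ucp1 (117 FPKM), Cfd (149 FPKM) and Adipoq (36.7 FPKM). It also stood apart for Prph (2.68 FPKM) of the neuron list and S100b (3.83 FPKM) of the Schwann cell list, and replicate 5 for Chad (18.8 FPKM). Trained wild-type replicate 4 stood apart for Cfd (283 FPKM).

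The other flags lay in sedentary libraries. Labelled knockout replicate 4 was high for Myl7 (14.8 FPKM), Chad (2.07 FPKM) and Cnn1 (2.17 FPKM). Wild-type replicate 2 was high for Cfd (3.79 FPKM), Cnn1 (1.42 FPKM) and Upk3b (1.17 FPKM). Wild-type replicate 1 was high for Ucp1 (0.0311 FPKM, the 1 value above 0 in its group) and low for Sds (0.210 FPKM). Labelled knockout replicate 5 was high for Prph (0.246 FPKM) and replicate 1 for Fgl2 (40.8 FPKM).

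For 4 genes limma's interaction test between class and genotype passed: Fgl2 (-1.90), Mlana (-2.80), Hamp (-2.24) and Sds (-1.82). With the replicate number as a block none of them passed, and leaving out single libraries gave counts from 0 to 62. Hamp was listed at 0 in the low-Myl7 wild-type libraries, so its value depends on the 0.5 added before the logarithm.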

How the results depend on the processing

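Of the count of genes set apart upward (201), a filter at a mean of 2 FPKM left 108; of those downward (7), there were 15 and 4 with 0.1 and 1 added before the logarithm, 4 with that filter, 3 in TPM and 2 with the replicate number as a block. The interaction passed for 9 genes without a filter and 0 with the block. In TPM, 5226 genes were higher and 827 lower by genotype, 186 and 54 by training in wild-type and 4085 and 631 in labelled knockout mice. Wild-type training counts were 208 and 146 without a filter, 804 and 860 with the block, 34 and 6 without the high-Myl7 libraries and 1 and 3 without those with Arntl above 2 FPKM. The sedentary r turned to -0.0306 for Hcn4 with 0.1 added and to 0.00733 for Sbk2 with 1 added.

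Leaving out 1 library at a time gave 182 to 252 genes set apart upward and 4 to 14 downward (4 without wild-type replicate 5, 14 and 13 without wild-type and labelled knockout replicate 2), 0 to 62 interactions (12 without wild-type replicate 4, 2 and 1 without labelled knockout replicates 3 and 5), 1431 to 2114 and 1800 to 2361 genotype calls, 1225 to 1706 and 1866 to 2320 training calls in labelled knockout and 93 to 1051 and 33 to 1260 in wild-type mice, where leaving out sedentary labelled knockout replicates 2, 4 or 5 or trained labelled knockout replicates 1 or 3 also lowered the second count, to between 216 and 230. The r ranges were 0.944 to 0.969 for Myl4, 0.861 to 0.910 for Sln, 0.622 to 0.858 for Adipoq (passing without sedentary wild-type replicate 3), -0.41 to 0.356 for Hcn4, -0.349 to 0.0816 for Myl2, -0.309 to 0.342 for Prph, -0.633 to 0.193 for Sbk2, -0.322 to 0.354 for Sbk3 and -0.282 to 0.0178 for Upk3b.

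No label says that replicate numbers pair mice. Same-numbered trained libraries had correlations of 0.364, -0.253, 0.432, -0.295 and 0.487, positive where both were of 1 Myl7 class and negative where not, so that these values do not settle the pairing. The cause of these shifts was not tested.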
